A study of Bos taurus with 16 samples.

Results

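LMTK3, TMEM170A, PRDM16, RBM19, TPST2, SYT2, AFF3, SLC2A11, VOPP1 and CDC42BPA are 10 genes in which a single cytosine differed strongly in methylation by the later outcome of insemination in endometrial cells of dairy cows. All positions that the deposited table assigns to these gene symbols were taken, which gave 295 of 199395 sites. In each gene, the lead site was selected on its group means, as the one with the largest difference of the group means between pregnancy and no pregnancy, in the diet in which the study put the gene forward. That diet was the control diet for LMTK3, TMEM170A, PRDM16, RBM19, TPST2 and SYT2 and the methionine diet for AFF3, SLC2A11, VOPP1 and CDC42BPA. The difference in the diet of choice is therefore what picked the site, and it is described below without a test. Tests were made in the libraries of the other diet, which had no part in the choice, and asked whether the lead site again differed with the outcome there and whether it did so together with its neighbours and the rest of its gene.

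Multiparous Holstein-Friesian cows of a commercial farm received a control diet (CON) or, from day 12 postpartum, the same feeding with rumen-protected methionine (MET). They were inseminated at an oestrus on days 50 to 64 postpartum, a cytobrush took endometrial cells 4 to 8 h later, and a later ultrasound check sorted the samples into pregnancy (P) and no pregnancy (noP). Reduced representation bisulfite sequencing (RRBS), in which DNA cut by MspI is treated with bisulfite so that unmethylated cytosines read as thymine, gave 16 libraries. The groups are named CON_P, CON_noP, MET_P and MET_noP and hold 4 libraries each. DNA was taken from more cytobrush samples than there are libraries, and how many cows stand behind a library is not given in the sources used here, so p-values measure only the spread between these libraries. The values are percentages without read counts, so the depth behind each is unknown and no counting error can be given. A cytobrush sample holds a mixture of cell types, and a change of methylation within cells and a change in the mixture cannot be told apart. A thymine present in the DNA itself would also read as unmethylated, and the genotype of the cows at these sites was not examined.

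Methylation of a CpG cytosine is copied at cell division by maintenance enzymes, and CpGs that lie close together usually carry a similar level. In gene bodies most CpGs are highly methylated, whereas CpG-rich promoters are mostly unmethylated. Methionine enters this system as the precursor of the methyl donor S-adenosylmethionine. The 10 genes share no pathway. LMTK3 and CDC42BPA are protein kinases, PRDM16 and AFF3 act on transcription in the nucleus, RBM19 binds RNA during ribosome production, and TPST2, SYT2, SLC2A11, TMEM170A and VOPP1 are membrane proteins with separate tasks.

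The lead sites exceeded the other sites of their genes in the diet of choice by the rule that chose them. In the diet of choice, their absolute difference between outcomes ranged from 32.2 to 49.3 percentage points over the 10 genes, with a median of 39.2. Of 31 other sites within 100 bp of a lead site, 0 differed by more than 10 percentage points in that diet. Over the remaining sites of each gene the mean difference in the diet of choice lay between -3.24 and 3.04 percentage points. In the other diet, leaving out AFF3, which the study put forward in both, the lead sites differed by 2.12 to 19.5 percentage points in absolute terms, with a median of 10.98, and the direction was the same as in the diet of choice in 2 of 9.

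**Figure D1:**
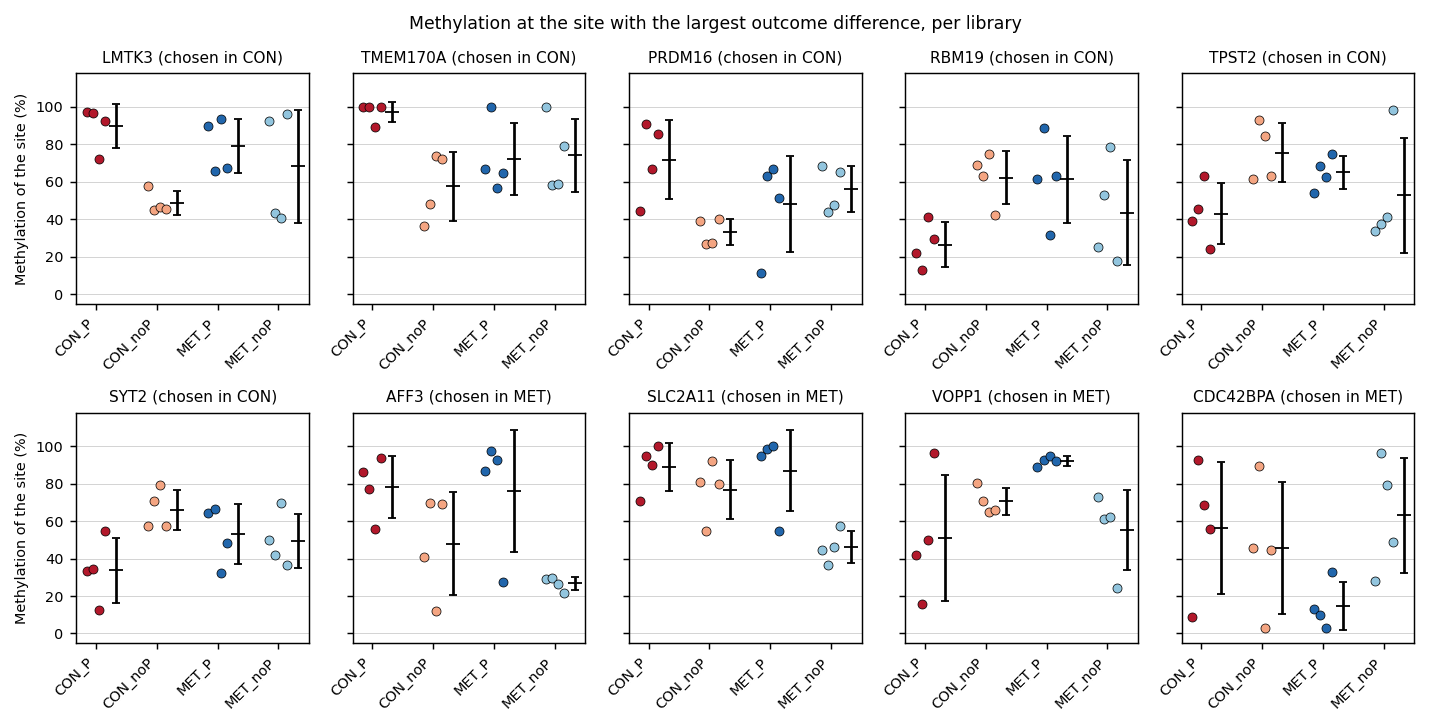
Methylation (%) of the lead site of each gene in every library, by group, with the group mean and SD (n = 4 libraries) at the right of the points. In LMTK3 the CON_P libraries lie at 72.2% to 97.3% and the CON_noP libraries at 44.8% to 57.9%, while the MET libraries spread from 40.8% to 96.5%.

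LMTK3, a membrane-anchored serine/threonine kinase of the lemur tail family, had its lead site on chromosome 18 at position 55167604 (ARS-UCD1.2), which the study's annotation places in an exon. The CON_P libraries had 97.3%, 96.8%, 72.2% and 92.5% methylation and the CON_noP libraries 57.9%, 44.8%, 46.4% and 45.5%. Every CON_P library was above every CON_noP library, and the means were 89.7% ± 11.8 (SD, n = 4) and 48.7% ± 6.20 (SD, n = 4). The MET_P libraries had 90%, 66.0%, 93.3% and 67.5%, and the MET_noP libraries 92.3%, 43.2%, 40.8% and 96.5%. The MET_P range lay within the wider MET_noP range. In MET_noP, 2 libraries were near the CON_noP level, below every MET_P library, and the others were near the CON_P level. The difference in MET was 10.98 percentage points with a standard error (SE) of 16.8 (exact permutation test, p = 0.6), and with 1 library left out it ranged from 1.85 to 20.4.

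CDC42BPA, a kinase that acts downstream of the small GTPase CDC42 on the actomyosin cytoskeleton, was represented by a single site, on chromosome 16 at position 29964920. Methylation there was 12.96%, 9.88%, 3.17% and 32.9% in the MET_P libraries and 27.8%, 96.3%, 79.3% and 49.0% in the MET_noP libraries. The ranges overlapped by 1 library on each side, and the means were 14.7% ± 12.8 (SD, n = 4) and 63.1% ± 30.6 (SD, n = 4). In CON_P the values were 8.57%, 92.6%, 68.8% and 55.6%, and in CON_noP they were 45.8%, 89.7%, 3.17% and 44.4%. Both CON groups thus ran from under 10% to about 90%, and their difference of 10.6 percentage points (SE 24.99) was smaller than this spread (exact permutation test, p = 0.657). It ranged from -3.61 to 26.5 percentage points with 1 library left out. Over the whole table, without matching for the level of methylation, 0.00201% of the sites had as large an SD between the CON libraries of a group.

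PRDM16, a zinc finger regulator of transcription known from brown fat, had its lead site in an intron on chromosome 16 at position 49593826. The CON_P libraries had 44.2%, 90.9%, 66.7% and 85.7%, and the CON_noP libraries 38.9%, 26.9%, 27.4% and 40.0%. The lowest CON_P library was above the highest CON_noP library by a few percentage points, and the means were 71.9% ± 21.2 (SD, n = 4) and 33.3% ± 7.11 (SD, n = 4). In MET_P the values were 11.1%, 63.3%, 66.7% and 51.3%, and in MET_noP 68.3%, 43.8%, 47.8% and 65.5%. The MET difference had the opposite sign, -8.25 percentage points (SE 14.2), and the groups overlapped (exact permutation test, p = 0.714). With 1 library left out it ranged from -14.4 to 4.08 percentage points.

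AFF3, a nuclear protein of the AF4/FMR2 family of transcription elongation factors, had its lead site on chromosome 11 at position 4975503, in an intron. The MET_P libraries had 86.7%, 97.5%, 92.6% and 27.5%, and the MET_noP libraries 29.2%, 29.4%, 26.7% and 21.6%. A single MET_P library lay among the MET_noP libraries and the other three far above them. The difference of 49.3 percentage points was the largest of any site of the table in MET. It was 65.5 percentage points without MET_P library 31, the low one, and 42.2 or more without any other library. In CON_P the values were 86.5%, 77.3%, 55.6% and 93.8%, against 40.9%, 69.7%, 12.1% and 69.0% in CON_noP, a difference of 30.3 percentage points in the same direction. The study put the site forward in both diets, so the CON difference is a description too. The CON groups overlapped, and with 1 library left out the CON difference ranged from 18.4, without CON_noP library 24, to 37.9.

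RBM19, an RNA-binding protein of ribosome biogenesis, had a lead site with lower methylation in CON_P. At its lead site, in an intron on chromosome 17 at position 60718681, the CON_P libraries had 22.2%, 13.04%, 41.2% and 29.4% and the CON_noP libraries 68.8%, 63.2%, 75.0% and 42.1%. The highest CON_P library was just below the lowest CON_noP library. In MET the order of the means was the other way, with 61.5%, 88.9%, 31.8% and 63.2% in MET_P and 25%, 52.9%, 78.6% and 17.6% in MET_noP. The MET difference of 17.8 percentage points (SE 18.2) did not exceed the library spread (exact permutation test, p = 0.371). With 1 library left out it ranged from 8.63, without MET_P library 19, to 29.5, without MET_noP library 25.

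TPST2, a Golgi enzyme that adds sulfate to tyrosines of secreted and membrane proteins, had its lead site in an exon on chromosome 17 at position 66200651. The CON_P libraries had 39.3%, 45.5%, 63.2% and 24.3%, and the CON_noP libraries 61.8%, 93.1%, 84.6% and 63.2%, so that the groups overlapped at 1 CON_P library. In MET_P the values were 54.2%, 68.5%, 62.5% and 75.0%, and in MET_noP 34.0%, 37.5%, 41.4% and 98.5%. The MET difference of 12.2 percentage points (SE 15.9) was opposite in sign to that in CON (exact permutation test, p = 0.514). Here 1 MET_noP library was far above all others, and without it, library 29, the MET difference was 27.4 percentage points, while it was 5.93 without MET_noP library 13.

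SYT2, a calcium sensor of vesicle exocytosis, had its lead site in an intron on chromosome 16 at position 80090111. In CON_P the libraries had 33.3%, 34.5%, 12.5% and 55.0%, all below the CON_noP values of 57.1%, 70.6%, 79.2% and 57.1%. In MET_P the values were 64.3%, 66.7%, 32.1% and 48.5%, and in MET_noP 50.0%, 41.9%, 69.6% and 36.8%. The MET groups lay over each other, with a difference of 3.31 percentage points (SE 10.8; exact permutation test, p = 0.8). With 1 library left out it ranged from -1.28 to 10.2 percentage points.

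SLC2A11, a hexose transporter of the GLUT family, had its lead site on chromosome 17 at position 71277612. The MET_P libraries had 95%, 98.3%, 100% and 54.5%, and the MET_noP libraries 44.4%, 36.8%, 46.2% and 57.1%. The low MET_P library was library 31, as in AFF3, and without it the MET difference of 40.8 percentage points was 51.6, and without any other library at least 36.5. In CON_P the values were 70.9%, 95%, 90% and 100%, and in CON_noP 81.0%, 55.0%, 91.9% and 79.6%. The CON difference of 12.1 percentage points (SE 10.1) had the same sign, but the groups overlapped (exact permutation test, p = 0.314). With 1 library left out it ranged from 4.83, without CON_noP library 16, to 18.1.

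VOPP1, a membrane protein of intracellular vesicles, had its lead site on chromosome 22 at position 692881. The MET_P libraries were tightly grouped at 88.7%, 92.8%, 94.6% and 92.2%, and the MET_noP libraries lay below them at 73.0%, 61.1%, 62.1% and 24.3%. Without library 29, the lowest, the MET difference of 37.0 percentage points was 26.7, and with any other library left out it was at most 42.9. In CON the means were in the opposite order, with 42.0%, 15.8%, 50.0% and 96.3% in CON_P and 80.6%, 70.6%, 65.0% and 65.9% in CON_noP. The CON difference was -19.5 percentage points (SE 17.1; exact permutation test, p = 0.343). It was -34.6 without CON_P library 30, the only CON_P library above the CON_noP range, and -7.72 without CON_P library 18, the lowest.

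TMEM170A, a membrane protein that helps shape the endoplasmic reticulum and nuclear envelope, also had a single site, in an intron on chromosome 18 at position 2812034. The CON_P libraries had 100%, 100%, 89.5% and 100%, all above the CON_noP values of 36.4%, 48.3%, 73.9% and 72.0%. In MET_P the values were 66.7%, 100%, 56.5% and 64.7%, and in MET_noP 100%, 58.3%, 59.1% and 78.9%. Each MET group held a single fully methylated library, and the difference was -2.12 percentage points (SE 13.8; exact permutation test, p = 0.886). It ranged from -11.5 to 6.52 percentage points with 1 library left out.

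Across the 10 genes, the libraries of the outcome groups did not overlap in the diet of choice at 5 of 6 lead sites in CON, where 1.99% of all sites did not overlap, and at 1 of 4 in MET, where 2.9% did not. These counts follow from how the sites were chosen. In the other diet, the groups overlapped at all 10 lead sites. Of 9 lead sites tested there with limma on the whole table, AFF3 being left out, 0 had an adjusted p under 0.05 (Benjamini-Hochberg over all sites), and 0 had an unadjusted p under 0.05. The table as a whole had 0% of sites past the adjusted threshold in each diet, and 3.93% in CON and 5.12% in MET at an unadjusted p under 0.05. The lowest unadjusted p from limma among the 9 was 0.121, at SLC2A11, and the lowest adjusted p was 0.953, at RBM19. Exact permutation p-values ranged from 0.314 to 0.886, where 4 libraries against 4 can reach 0.0286. The standard errors of 10.1 to 24.99 percentage points are wide, and these p-values do not show that the outcome groups were alike.

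The direction was the same in the diet of choice and the other diet at 1 of 6 sites chosen in CON, LMTK3. It was also the same at 1 of 3 sites chosen in MET, SLC2A11. AFF3 is left out there because its shared direction was part of the choice. On the log2 scale used in limma, the LMTK3 difference in MET was not stable in sign. It ranged from -0.33 to 1.32 with 1 library left out. Over all sites of the table, 46.2% had a difference of the same sign in both diets. The comparison of diets within an outcome shares libraries with the contrast that chose the sites and is given as values. MET_P exceeded CON_P by 41.0 percentage points at VOPP1 and by 34.9 at RBM19, and was lower by 41.6 at CDC42BPA (a difference of -41.6). MET_noP exceeded CON_noP by 23.0 percentage points at PRDM16, and the difference was -30.7 at SLC2A11 and -22.8 at TPST2.

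**Figure D2:**
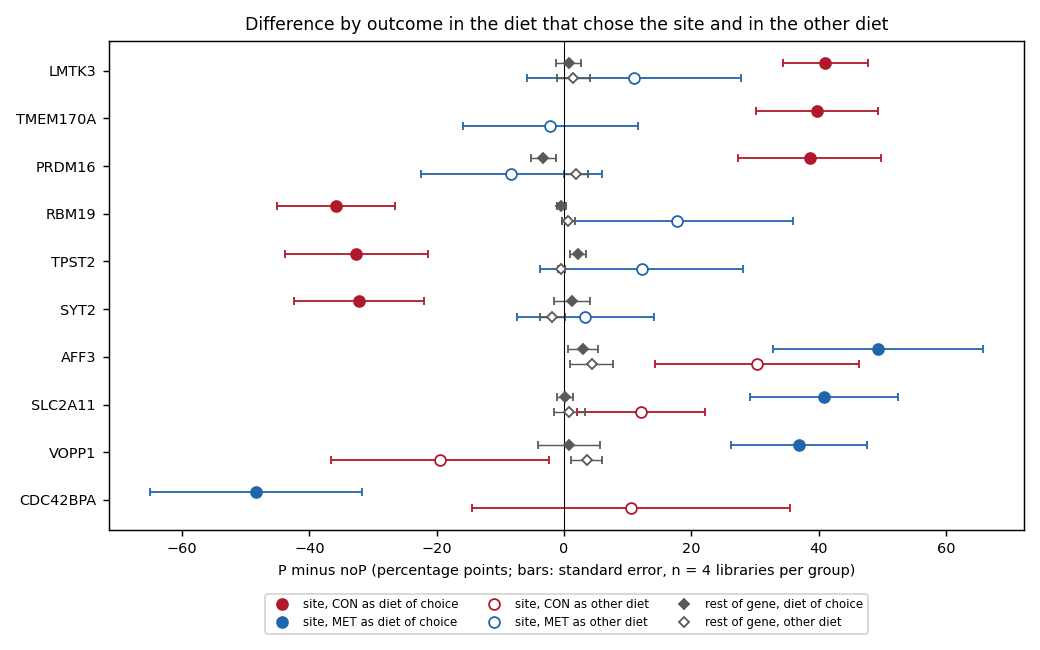
Difference between P and noP (percentage points, ± SE, n = 4 libraries per group) at the lead site in the diet of choice (filled circles) and in the other diet (open circles), in CON (red) and MET (blue), with the mean over the rest of the gene as diamonds. In the diet of choice the lead sites lie 32.2 points or more from 0. In that diet, the mean over the rest of the gene, in the 8 genes that have one, lies between -3.24 and 3.04 points. In the other diet it lies between -1.81 and 4.34 points. For VOPP1 the rest of the gene is a single site.

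The genes differed in how much of them was measured. SYT2 had 83 sites, RBM19 44, TPST2 42, LMTK3 34, PRDM16 32, AFF3 29, SLC2A11 23 and VOPP1 6, and TMEM170A and CDC42BPA had 1 each. The measured sites of LMTK3 spanned 13574 bp and those of AFF3 539303 bp. TPST2 and RBM19 were highly methylated at most sites, with a mean above 80% over the 16 libraries at 37 of 42 and 33 of 44 sites. SYT2 was the most intermediate, with 43 of 83 sites between 20% and 80%. LMTK3 and SLC2A11 each had 5 sites under 20%, and VOPP1 had 1, at the other end of its measured stretch, 177533 bp from the lead site, with 4.76% to 25% over the libraries.

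**Figure D3:**
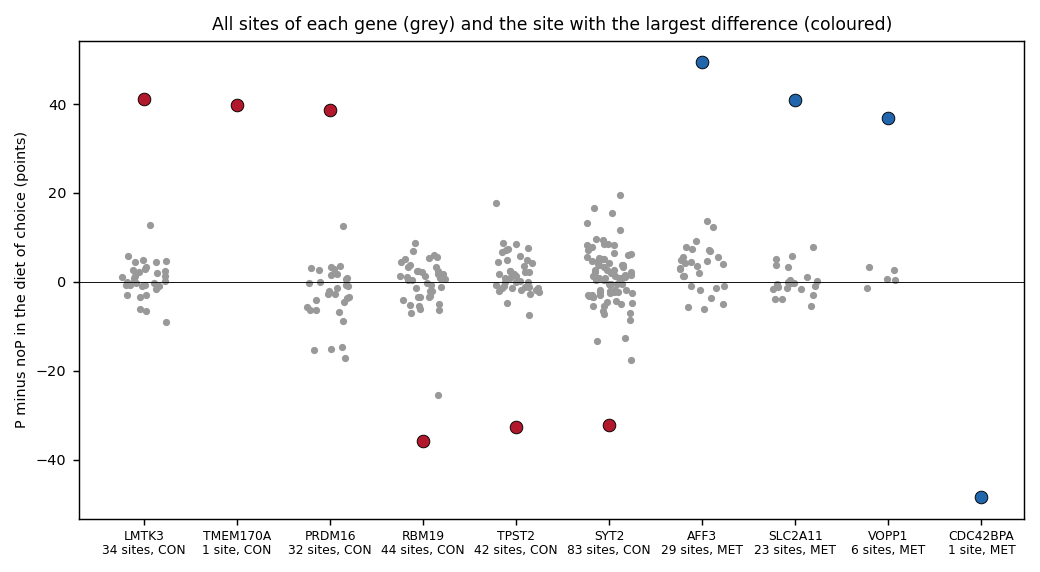
Difference between P and noP (percentage points) in the diet of choice at every measured site of the 10 genes, with the lead site coloured (red: CON, blue: MET) and the other sites in grey. The lead sites lie at 32.2 points or more in absolute terms, and 1 of 285 other sites, in RBM19, lies beyond 20 points in CON.

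The next largest difference in each gene with other sites was smaller than the lead in absolute terms, which follows from the choice of the lead. In LMTK3 it was 12.9 percentage points in CON, in PRDM16 -17.1, in TPST2 17.7 and in SYT2 19.5, so that in PRDM16, TPST2 and SYT2 it was also opposite in sign to the lead. In MET it was 13.7 percentage points in AFF3, 7.88 in SLC2A11 and 3.31 in VOPP1. RBM19 had the largest of these in absolute terms, with a second site at -25.5 in CON, beside -35.8 at its lead. In TPST2 and SYT2 the leads were -32.6 and -32.2. Over the 285 sites of the 10 genes other than the leads, the median absolute difference was 2.95 percentage points in CON and 2.94 in MET, beside 2.83 and 2.68 over all sites. An unadjusted p under 0.05 in limma was found at 9 of them in CON (3.16%) and 16 in MET (5.61%), and 0 passed after adjustment. Their libraries did not overlap at 0.702% of the sites in CON and 2.46% in MET, below the shares over the whole table.

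Neighbours within 100 bp were present for 8 lead sites, 31 in all, and 26 of these had a mean methylation above 80%. No lead site had a value at the adjacent base, so no value of the opposite strand of the same CpG was used here. The nearest other measured site of TMEM170A was 15888 bp away and that of CDC42BPA 14949 bp, each in a neighbouring gene. The neighbours of the TPST2 lead site had a mean of 95.8%, those of SLC2A11 96.8%, those of VOPP1 96.0% and those of PRDM16 92.6%. The lead site was below the mean of its neighbours in 16 of 16 libraries in PRDM16, RBM19 and VOPP1, in 15 in TPST2, 14 in AFF3, 12 in SYT2, 11 in SLC2A11 and 9 in LMTK3.

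Site by site, the differences close to the lead are given in the diet of choice, where the lead was picked as the largest. In SLC2A11 the sites 4 bp before and 5 bp after the lead had differences of 3.26 and -1.25 percentage points in MET, where the lead had 40.8. In VOPP1 the sites 18 bp before and 13 bp after it differed by 0.505 and 2.62 percentage points in MET, beside 37.0 at the lead. In TPST2 the site 9 bp after the lead differed by -2.20 percentage points in CON, beside -32.6. The LMTK3 site 4 bp after the lead differed by -1.56 percentage points in CON, beside 41.0, and in PRDM16 the sites 16 bp before and 18 bp after the lead differed by -0.262 and 3.24 beside 38.6. In each of these cases the neighbour stayed within a few percentage points between the outcomes. Other neighbours differed more, by -9.13 percentage points in CON 34 bp after the LMTK3 lead. The RBM19 site 14 bp before its lead differed by -6.25 in CON. That the leads differed more than their neighbours follows from the choice.

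**Figure D4:**
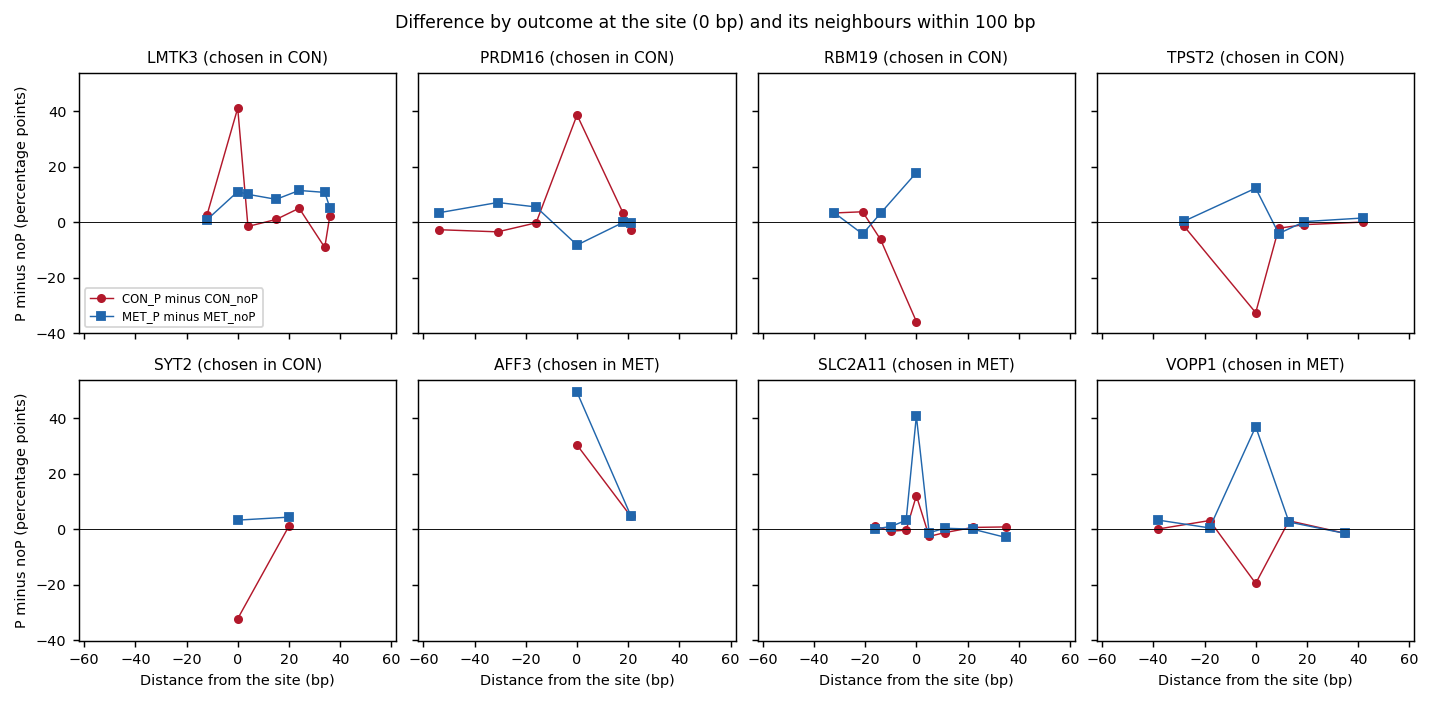
Difference between P and noP (percentage points) against the distance from the lead site (bp) for the 8 genes with other sites within 100 bp, in CON (red circles) and MET (blue squares). The difference is large at 0 bp in the diet of choice, which picked the site. In that diet it is within 10 points at each of the 31 neighbours.

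LMTK3 and SYT2 had neighbours of a different kind. In LMTK3 the sites 12 bp before and 4 and 15 bp after the lead had means of 89.6% to 90.9%, but those 24, 34 and 36 bp after it had 62.4%, 66.6% and 49.4%. In MET the LMTK3 neighbours were on average 7.73 percentage points higher in MET_P, close to the 10.98 at the lead, whereas in CON they differed by 0.0256. In SYT2 the single neighbour, 20 bp away, had a mean of 62.3% and ranged over 64.7 percentage points across the libraries, nearly as far as the 66.7 of the lead. AFF3 also had a single neighbour, 21 bp away, which had a mean of 87.0% and differed by 4.90 percentage points in MET and 4.68 in CON.

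The range over the 16 libraries, which include those that chose the site, was compared for single sites, without matching for the level of methylation. It was 74.1 percentage points at the TPST2 lead and at most 15.8 at a neighbour, and 80.5 and 22.7 in VOPP1. In LMTK3 the lead ranged over 56.5 percentage points and a neighbour over 44.2, and in SYT2 over 66.7 and 64.7, so that lead and neighbour were much closer there. In TPST2 the neighbour mean stayed between 91.8% and 98.3% in all libraries while the lead went from 24.3% to 98.5%. In VOPP1 the neighbour mean stayed between 93.7% and 98.5% while the lead went from 15.8% to 96.3%. In PRDM16 MET_P, the library with 11.1% at the lead had 94.7% at the neighbours. The rest of the TPST2 gene had 88.4% to 94.4%, and the rest of SLC2A11 52.1% to 63.2%, in the 16 libraries.

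**Figure D5:**
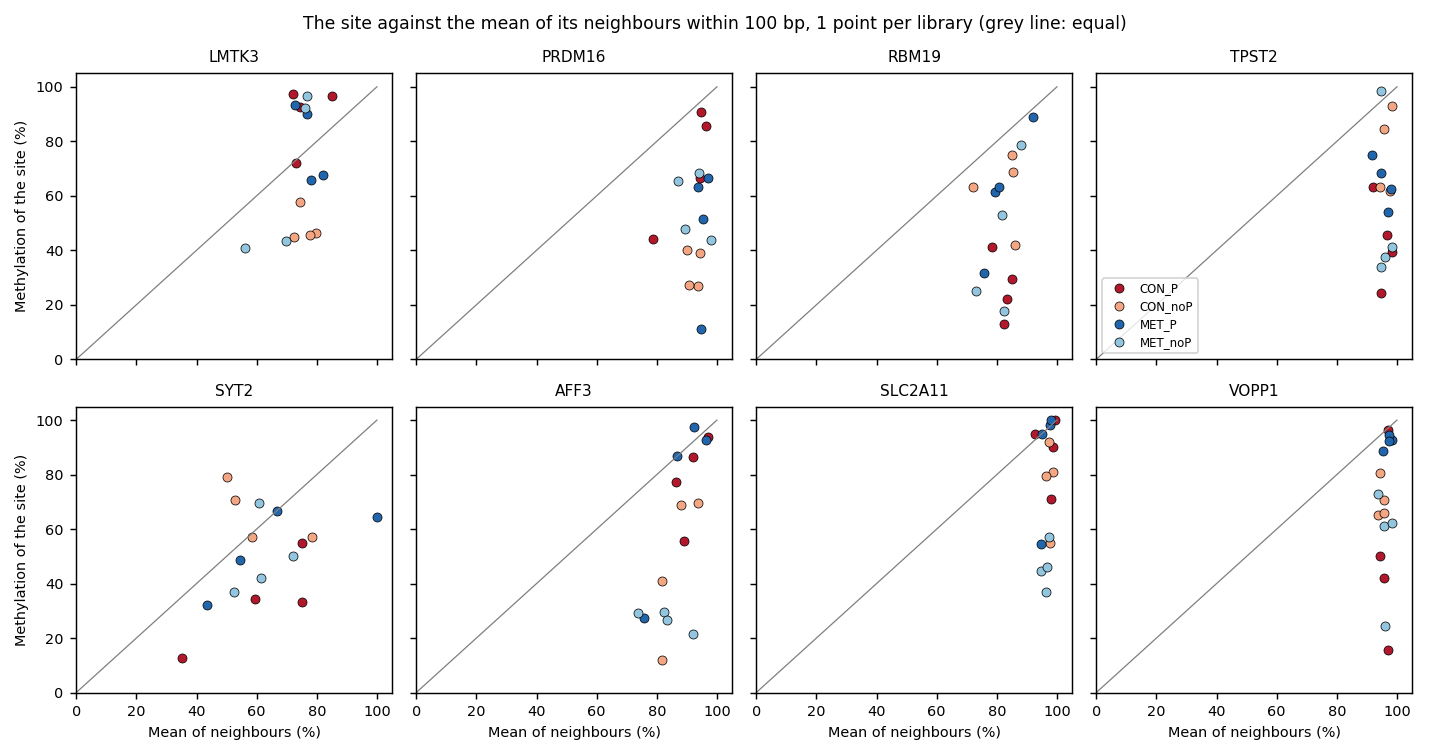
Methylation (%) of the lead site against the mean (%) of its neighbours within 100 bp, 1 point per library and coloured by group, with a grey line where the values are equal. In TPST2 and VOPP1 the points form a nearly vertical band between 91.8% and 98.5% on the horizontal axis, and in SYT2 they scatter over both axes.

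The spread between libraries was also described in the diet that had no part in the choice, at the 9 lead sites other than AFF3. There the SD within a group, pooled over both outcomes, was 14.2 to 35.3 percentage points, with a median of 22.5, beside a median of 6.05 in CON and 5.43 in MET over all sites. The share of all sites with as large an SD was 0.296% for the median lead site and 8.53% for SLC2A11, the least variable one. The lead exceeded each of its neighbours in this SD in 6 of 7 genes. In TPST2 the SD in MET was 22.5 percentage points at the lead and at most 3.99 at a neighbour. SYT2 was the exception, with 15.2 at the lead and 18.2 at its neighbour.

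The second site of RBM19, on chromosome 17 at position 60712516 and 6165 bp from the lead, was chosen after its values were seen. It had 26.7%, 8.33%, 9.09% and 58.3% in CON_P and 30%, 55.6%, 54.5% and 64.3% in CON_noP. In MET_P it had 32.0%, 96.8%, 22.2% and 71.4%, and in MET_noP 31.8%, 30%, 36.4% and 18.8%. The CON_P mean was lower by 25.5 percentage points (a difference of -25.5), and the MET_P mean was higher by 26.4, the same signs as at the lead site, with overlap of the groups in both diets. Its 5 neighbours within 100 bp had means of 93.7% to 98.6% and differed on average by 1.29 percentage points in CON and 0.35 in MET. Libraries did not keep their order between both RBM19 sites throughout. MET_P library 19 was highest at both, with 88.9% at the lead and 96.8% here, but CON_P library 26 was highest of its group at the lead, with 41.2%, and had 9.09% here, and CON_noP library 28 was lowest of its group at the lead, with 42.1%, and highest here, with 64.3%.

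Taken relative to its neighbours in each library, the lead site was again compared between outcomes in the other diet. In RBM19 the lead was below its neighbours by 20.7 percentage points in MET_P and by 37.8 in MET_noP on average (differences of -20.7 and -37.8). The change between outcomes was 17.1 percentage points (exact permutation test, p = 0.286). In VOPP1 the lead minus its neighbours was -45.0 percentage points in CON_P and -24.4 in CON_noP (exact permutation test, p = 0.286). Without CON_P library 30 this VOPP1 change of -20.7 percentage points became -35.4 (exact permutation test, p = 0.0286), the smallest p that 3 libraries against 4 allow, and without CON_P library 18 it became -8.60 (exact permutation test, p = 0.571). Over the 7 genes with such a test, the exact permutation p-values ranged from 0.286 to 0.914.

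Averaged over all sites of the gene but the lead, 7 genes were tested with limma in the other diet among 8706 genes with at least 2 sites. An adjusted p under 0.05 was found for 0 of 7, and for 0% of all genes in both diets. At an unadjusted p under 0.05 there were also 0 of 7, where 3.92% of all genes passed in CON and 5.51% in MET. VOPP1 had the lowest unadjusted p, 0.0501, with a difference of 0.62 ± 0.28 (SE) on the M scale in CON, opposite in sign to its lead site (adjusted p from limma 0.999). M is the log2 of the methylated over the unmethylated percentage. For the remaining genes the difference ranged from -0.19 ± 0.29 (SE) in TPST2 to 0.33 ± 0.28 (SE) in LMTK3, both in MET.

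Relatives of the 10 genes were looked at as a list of 58 genes, among them the other PRDM and synaptotagmin genes, TPST1, AFF1, AFF2 and AFF4, the other SLC2A hexose transporters, CDC42BPB and CDC42BPG. Of these, 38 had a measured site and 32 at least 2, with 589 sites in all. With limma, 0 of the 32 gene means had an adjusted p under 0.05 in either diet. At an unadjusted p under 0.05 there were 2 higher in CON_P, 1 higher in MET_P and 0 lower. Over all 8706 genes with at least 2 sites, 3.92% in CON and 5.51% in MET had an unadjusted p under 0.05. The counts are too small to set the relatives apart from all genes. The median difference of the gene means was 1.25 percentage points in CON and 0.358 in MET, beside 0.441 and 0.283 over all genes. The largest absolute gene-mean differences in CON were 7.22 percentage points in SYT5, -5.69 in TMEM170B and 5.17 in PRDM8, and in MET 8.20 in PRDM1, 6.28 in TMEM170B and 5.34 in SLC2A13. No single site of a relative differed by more than 30 percentage points, and the largest absolute difference was 28.1 in CON and 22.8 in MET. Such differences were rare in the whole table. Of all sites, 0.0366% reached the 30.3 percentage points of AFF3 in CON and 0.011% the 37.0 of VOPP1 in MET. Their absence among the relatives therefore does not set these apart from other genes.

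Mean methylation over all sites was 61.3% to 65.1% in the 16 libraries. The tissue label cannot be checked against expressed markers, since the table holds methylation only. The 132 sites in leukocyte genes had a mean of 48.6% to 62.7% in CON_P, 53.8% to 56.4% in CON_noP, 56.3% to 59.5% in MET_P and 50.1% to 58.6% in MET_noP. The 9 sites in epithelial genes had 12.04% to 28.3%, and the 62 in genes of stroma and vessels 71.7% to 77.3%, over the 16 libraries. These ranges overlapped between all groups, and their part in the differences at the lead sites was not tested. The library farthest from its group mean at the lead site was library 26 in 6 of 10 genes in CON_P and library 29 in 5 of 10 in MET_noP.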

How the data were processed

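RRBS libraries of endometrial cytobrush cells were analysed, 4 per group. Read trimming by the authors used Trim Galore, alignment used Bismark with the build ARS-UCD1.2, SAMtools merged the sequences of a library, and SeqMonk quantified positions with at least 10 counts. The values deposited by the authors are percent methylation per position and library, from 1% to 100%, since positions with missing or zero values had been discarded. A position that was fully unmethylated in any library is thus not in the table. Read counts were not used here, so depth is unknown, and no interval from counts is given. Columns were assigned to groups by the group name above them, because their library numbers are not in the labels.

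Percentages were transformed to M = log2((percent + 1)/(100 - percent + 1)) and tested per site with limma 3.58.1 in R 4.3.3 (empirical Bayes without trend, 8 libraries of 1 diet, Benjamini-Hochberg over all sites, threshold 0.05), after a check on simulated data. The logistic regression of the study needs counts and could not be used. Gene means of M without the lead sites were tested in the same way. Single values were tested with exact permutation of the libraries, two-sided (Python 3.11.15, numpy 2.4.6, pandas 2.3.3). Figures were made with matplotlib 3.10.9. The rule for named genes took all 10 genes and, of a list of relatives, at most 3 per diet by the size of the gene-mean difference. The 10 genes, the lists and the tests were chosen with earlier results of these data known. The alternatives tried were untransformed percentages, an offset of 0.1, moderation with trend, sites with a mean of 10% to 90%, all libraries in 1 model, centred libraries, a replicate block, each library left out, medians, genes with at least 5 sites, merged strands, and neighbours within 1000 bp or the nearest only. A choice of lead sites by group medians was added after the data were seen. DNA sequence around the sites was not used here.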

Additional observations from a re-analysis of the deposited data

Results flagged for a closer look

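In 104 groups of 4 libraries (lead sites, neighbour means and means of the rest of the gene), a single library stood apart from the other three in 9, by the gap to its nearest library divided by the range of the group (Dixon's test at 95%). Chance flags about 5% of such groups. At lead sites, the LMTK3 value of CON_noP library 12 was 57.89% with the next at 46.43%, the TMEM170A value of CON_P library 26 was 89.47% with the other three at 100%, and the TPST2 value of MET_noP library 29 was 98.46% with the next at 41.38%. MET_P library 31 was low at AFF3, with 27.5% and the next at 86.67%, and at SLC2A11, with 54.55% and the next at 95%. Among neighbour means, PRDM16 had 78.76% in CON_P library 14 with the next at 94.38%, and RBM19 had 71.93% in CON_noP library 16 with the next at 85.22%. Over the rest of the gene, LMTK3 had 65.11% in CON_P library 26 with the next at 69.07%, and RBM19 had 90.24% in MET_noP library 25 with the next at 87.56%.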

How the results depend on the processing

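The lead site of each gene was the same in 10 of 10 genes when either diet could choose it and when medians replaced means. The count of sites past the adjusted threshold, 0 in both diets, became 227 in CON and 282 in MET with an offset of 0.1 and 1 in CON with all libraries in 1 model, and 0 of 9 lead sites tested in the other diet passed under any of these alternatives. With sets of consecutive library numbers as a replicate block, 0 sites passed in each diet. Deviations of the P and noP libraries of a set within a diet had correlations between -0.055 and 0.0403. No pairing by number was seen there, which does not exclude one. The study matched cows in pairs that were split between the diets, and pairing between CON and MET libraries was not examined. The columns do not carry the replicate numbers of the labels, so those could not be used as a block. On the M scale, TPST2 in MET changed sign with an offset of 0.1 (-0.010), as did the mean of the other sites with medians for RBM19 (0.011) and SLC2A11 (-0.053). The change of the SYT2 lead relative to its neighbours changed sign within 1000 bp (2.17 percentage points). The cause was not tested. With each library left out, 0 lead sites and 0 gene means passed, and 0 to 1 genes passed for the lead relative to its neighbours (VOPP1, without CON_P library 30).

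With 1 library left out, the difference on the M scale at the lead site in the other diet ranged from -0.33 to 1.32 in LMTK3, -1.64 to 1.26 in TMEM170A, -1.06 to 0.23 in PRDM16, -0.46 to 1.62 in TPST2, -0.090 to 0.59 in SYT2, -2.19 to 0.047 in VOPP1 and -0.41 to 2.16 in CDC42BPA, so its sign was not stable there, and it kept its sign in RBM19 (0.55 to 1.99) and SLC2A11 (0.87 to 2.67). For the other sites of the gene it ranged from -0.094 to 0.27 in PRDM16, -0.17 to 0.083 in RBM19, -0.36 to 0.0050 in TPST2 and -0.30 to 0.0044 in SYT2. The lead relative to its neighbours ranged from -5.13 to 10.4 percentage points in LMTK3, -17.5 to 0.832 in PRDM16 and -5.49 to 6.42 in SYT2, and kept its sign in RBM19 (8.10 to 26.5), TPST2 (6.82 to 28.4), SLC2A11 (5.05 to 18.7) and VOPP1 (-35.4 to -8.60). Percentages without depth limit the precision of every single value.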
